A study of Mus musculus with 16 samples.

Results

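The genes described here are the nuclear genes for the subunits of oxidative phosphorylation, the respiratory chain and ATP synthase of the inner mitochondrial membrane. They were chosen by symbol, read from the Entrez gene identifier: complex I (Nduf genes), complex II (Sdha to Sdhd), complex III (Uqcr genes), cytochrome c (Cycs), complex IV (Cox4 to Cox8) and ATP synthase, also called complex V (Atp5 genes). Of 101 genes with such symbols, 5 pseudogenes, 8 Ndufaf assembly factors and 8 genes of alternative subunits (Cox6a1 and Cox6a2, Cox7a1 and Cox7a2, Ndufa4 and Ndufa4l2, Cox4i1 and Cox4i2) were left out. That left 80 genes, and 77 of them reached a mean CPM (read counts scaled to a common library size) of 1 over the 16 libraries, out of 27179 gene identifiers in all. Complex I gave 38 of the 77 genes, complex II gave 4, complex III gave 7, cytochrome c is 1 gene, complex IV gave 10 and ATP synthase gave 17. All 77 passed the filter for low counts. Just inside the limit was Cox8b, with a mean of 1.89 CPM, and just outside were Cox7b2 at 0.0983, Uqcr11 at 0.0221 and Cox8c at 0.00701.

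RNA was sequenced from whole hearts of mouse embryos at embryonic day 10.5, with 4 hearts of each of 4 genotypes. Wild-type hearts were Ing4+/+ Ing5+/+. The others were Ing4+/- Ing5+/+, without 1 copy of Ing4, Ing4+/+ Ing5-/-, without either copy of Ing5, and Ing4+/- Ing5-/-, with 1 copy left out of 4. The ING4 and ING5 proteins are readers of methylated histone H3 in histone acetyltransferase complexes. No strain, drug treatment or origin of the alleles is given in the sources used here.

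Oxidative phosphorylation passes electrons from NADH through complex I, and from succinate through complex II, to coenzyme Q, then through complex III and cytochrome c to complex IV, which reduces oxygen. Complexes I, III and IV pump protons as electrons pass, and ATP synthase lets the protons back and makes ATP. Most subunits are encoded in the nucleus and imported, while a few core subunits of every complex but complex II are encoded in mitochondrial DNA. The adult heart lives mainly on this pathway, whereas the early embryonic heart also draws on glycolysis.

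The libraries held 19753100 to 35664331 counted reads, and the 77 genes took 1.59% to 2.04% of them. Of the marker genes for cardiomyocytes all 10 were detected, and their summed level lay between 20659 CPM (heart 1 of Ing4+/+ Ing5-/-) and 35860 CPM (wild-type heart 2). Ing5 was at 33.5 ± 3.46 CPM in wild-type and 37.2 ± 3.70 in Ing4+/- Ing5+/+ hearts (SD, n = 4), and at 23.5 ± 4.48 in Ing4+/+ Ing5-/- and 21.01 ± 2.75 in Ing4+/- Ing5-/- hearts. Ing4 was at 39.5 ± 7.60 CPM in wild-type, 34.1 ± 1.85 in Ing4+/- Ing5+/+, 51.0 ± 7.31 in Ing4+/+ Ing5-/- and 34.3 ± 1.90 in Ing4+/- Ing5-/- hearts, so wild-type and heterozygous hearts overlapped. A whole-gene count does not tell an intact transcript from one that lacks a deleted part. From earlier results of these data, 3 libraries were known to stand apart from the rest, namely heart 1 of Ing4+/+ Ing5-/-, heart 4 of Ing4+/- Ing5+/+ and heart 2 of Ing4+/- Ing5-/-, and counts of genes are also given without them. Embryos of 7 litters were used, and wild-type and Ing4+/+ Ing5-/- embryos never shared one.

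The subunit genes were among the abundant transcripts of the wild-type heart. Compared per length, as CPM per kilobase of the deposited gene length (RPKM), the median of the 77 genes was 159, against 7.86 over the 15785 genes tested. A level of 100 RPKM or more was reached by 55 of the 77 genes (71.4%) and by 4.76% of all genes tested. The median RPKM was 133 in complex I, 204 in complex II, 317 in complex III, 172 in complex IV and 298 in ATP synthase. ATP synthase genes took 46.9% to 51.6% of the summed CPM of the 77 genes and complex I genes 21.7% to 25.4% in the 16 hearts.

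The 3 highest levels were those of ATP synthase genes. Atp5b, the beta subunit, was at 1829, 2077, 1919 and 1927 RPKM in the 4 wild-type hearts, and Atp5a1, the alpha subunit, at 1048, 1176, 1113 and 1077. The 3 genes for subunit c, which forms the rotating ring and is the same mature protein from each gene, were far apart: Atp5g3 was at 1131 ± 67.2 RPKM (SD, n = 4), Atp5g1 at 75.9 ± 8.73 and Atp5g2 at 4.68 ± 1.38. Their ranges did not overlap. Atp5g2 was also the lowest of all 77 genes, though most of its sequence is shared with pseudogenes.

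In complex IV, Cox8a, the isoform found in most tissues, was at 827 ± 75.02 RPKM, while Cox8b, the isoform of adult heart and muscle in the mouse, was at 5.12 ± 2.20. Cox5a was at 488 ± 36.2 and Cox5b, another subunit that faces the matrix, at 139 ± 17.1. Cox6b1, the common isoform of subunit VIb, was at 480 ± 46.6 RPKM, and Cox6b2, the isoform known from testis, at 7.77 ± 1.48. Cox7a2l, which joins complex III and complex IV in supercomplexes, was at 159 ± 11.9. In the pairs Cox8a and Cox8b, and Cox6b1 and Cox6b2, the wild-type hearts therefore held the common form at a far higher level per length. Isoform pairs of complex IV that the rule left out are not compared here.

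Among the genes kept, complex III was the most even of the larger complexes, from Uqcrh, the hinge protein, at 474 ± 41.9 RPKM to Uqcrb at 110 ± 16.02. Uqcr11, at a mean of 0.0221 CPM, fell below the limit and is not in this range. Part of the Uqcrb sequence (43.4% of its stretches of 50 bases) is shared with other genes. Its core protein Uqcrc1 and the iron-sulfur protein Uqcrfs1 stood at 317 ± 20.7 and 319 ± 10.9, a gap smaller than the spread between hearts. In complex II the iron-sulfur subunit Sdhb was at 291 ± 19.2, the membrane anchor Sdhc at 211 ± 11.9 and the flavoprotein Sdha at 197 ± 10.2, and the other anchor, Sdhd, lay well below them at 27.7 ± 5.81. Cycs, the carrier between complexes III and IV, was at 30.7 ± 0.792.

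In complex I the highest level was that of the accessory subunit Ndufb8, at 377 ± 37.7 RPKM, and the lowest that of Ndufb4, at 10.1 ± 3.15. The core subunits Ndufv1, which binds NADH, and Ndufs1 lay between them, at 161 ± 17.5 and 148 ± 3.88. Ndufab1, the mitochondrial acyl carrier protein that also serves as an accessory subunit, was at 16.1 ± 1.67. The 6 genes under 20 RPKM were Ndufab1, Ndufb4, Cox6b2, Cox8b, Atp5l and Atp5g2.

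**Figure D1:**
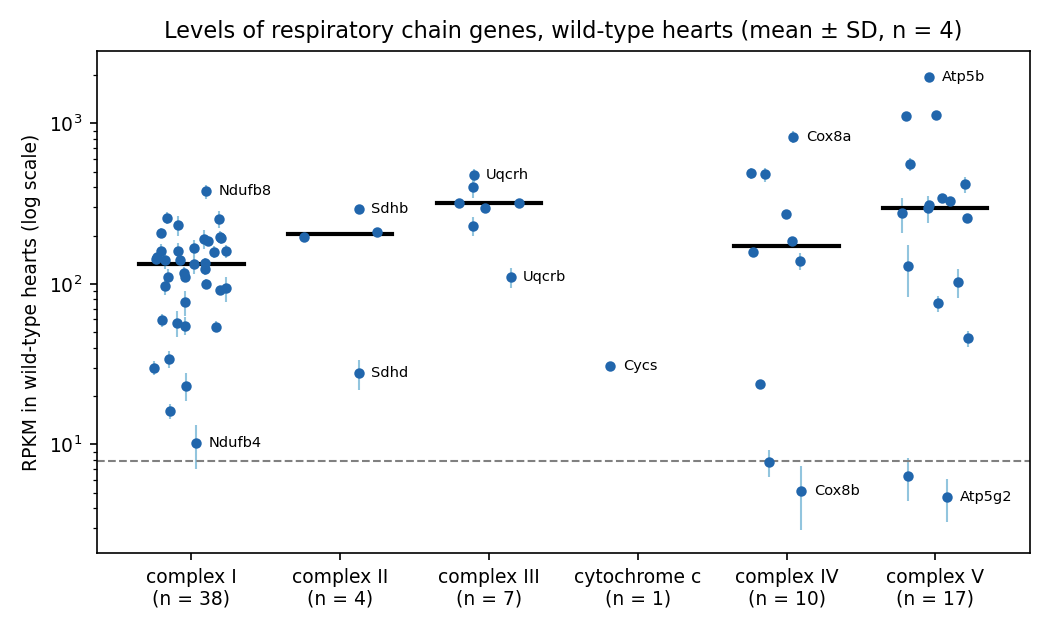
RPKM of each of the 77 genes in wild-type hearts, on a log axis, by complex; points are means and bars SDs over 4 hearts, thick lines are medians of a complex and the dashed line is the median of all genes tested (7.86). Atp5b is highest at 1938 RPKM, and Cox8b, Cox6b2, Atp5l and Atp5g2 lie below the dashed line.

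Several low values, though not all, belong to genes that share sequence with other annotated genes, where a read could fit another gene as well. Whether such sharing lowered a level was not tested. Of the 77 genes, 75 had a transcript linked to RefSeq in the GENCODE M21 annotation. Among these 30 shared no stretch of 50 bases with another annotated gene, and their median was 190 RPKM. Another 37 shared up to 40% of such stretches (median 159 RPKM), and 8 shared more than 40% (median 34.7 RPKM, from 4.68 to 555). The 8 were Atp5g2 (87.4%), Atp5l (84.8%), Cox7c (53.0%), Atp5h (50.5%), Atp5o (50.3%), Uqcrb (43.4%), Ndufs5 (41.2%) and Atp5md (40.6%), mostly with processed pseudogenes. Levels of these 8 genes are uncertain, as is that of Ndufb4, which shared 37.0%, mostly with Ndufb4c, annotated as a pseudogene in GENCODE. Cox6b2, Cox6b1, Cox8b, Ndufa8 and Sdhd shared none. No exon of another annotated gene overlapped those of 51 of the 75 genes, while 22 had an overlap on the opposite strand and 4 on the same strand. The strand setting of the counting is not given in the sources used here. Cox6b2, Cox6b1, Ndufa8 and Cycs had no such overlap. Cycs did share 28.5% of its stretches of 50 bases with other genes, 76 in all and 10 of them pseudogenes. Its level is therefore less certain than those of Cox6b2, Cox6b1 and Ndufa8.

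The 13 subunits encoded in mitochondrial DNA were in the table but were listed at 0 in all 16 libraries. The mitochondrial share of the complexes was therefore not analysed here.

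Ing4+/- Ing5-/- hearts were set against wild-type hearts to ask what the loss of 3 alleles in all does to the subunit genes. None of the 77 genes passed the test (edgeR's quasi-likelihood test, with p adjusted by Benjamini-Hochberg over the 15785 genes and a threshold of 0.05), where 135 of all genes did (0.855%). The lowest adjusted p among the 77 was 0.171 by edgeR. Without adjustment, p was under 0.05 for 9 genes that were lower, against 4.95% of all genes, and for 1 gene that was higher, against 6.40%. A negative log2 fold change was seen for 67 of the 77 genes and for 49.2% of all genes. The median log2 fold change was −0.079 over the 77 genes and 0.003 over all genes.

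The median was below 0 in every complex. The median log2 fold change was −0.09 in complex I (33 of 38 genes negative), −0.10 in complex II (4 of 4), −0.12 in complex III (7 of 7), −0.06 in complex IV (7 of 10) and −0.07 in ATP synthase (15 of 17). The 77 genes share the same 8 hearts, so these counts are not independent evidence of a shift. For 76 of the 77 genes the 95% interval of the log2 fold change lay within ±1, and for 65 within ±0.5. Without the 3 libraries that stood apart, 64 of the 77 genes were negative (51.1% of all genes), with a median of −0.06, none passed (2.00% of all genes), and unadjusted p was under 0.05 for 6 lower genes (7.00% of all genes) and 1 higher gene (6.99%). The count of lower genes ran from 2 to 12 when 1 library was left out, and was 3 without heart 2 of Ing4+/- Ing5-/-, 4 without heart 4 of Ing4+/- Ing5-/- or wild-type heart 3, and 5 without heart 1 of Ing4+/- Ing5+/+. Without wild-type heart 2, 2 genes were lower at unadjusted p under 0.05 (3.63% of all genes), 58 were negative (48.7%) and the median was −0.05. With litter as a block, 1 gene was lower (3.12% of all genes), 50 were negative (48.4%) and the median was −0.06. Wild-type hearts 2 and 3 had no littermate of another genotype, so that fit takes no difference between genotypes from them.

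The largest difference was that of Cox6b2, the subunit VIb isoform known from testis (GRCm38 chromosome 7, 4751792 to 4753094, minus strand). Its level was 7.18, 17.0, 7.88 and 6.09 CPM in the Ing4+/- Ing5-/- hearts and 5.43, 3.83, 4.02 and 5.50 in the wild-type hearts. Every Ing4+/- Ing5-/- heart was above every wild-type heart, though heart 2 alone was far above. The log2 fold change was 1.03 ± 0.31 (SE), with an edgeR adjusted p of 0.171, and without heart 2 it was 0.59, with an edgeR adjusted p of 0.581. DESeq2 gave an adjusted p of 0.0406, past the threshold (2.06% of all genes called), and edgeR with a Y-linked covariate gave 0.0477 (1.04%). With litter as a block, edgeR gave 0.344 (0.0950%). Heart 2 had the highest summed level of erythroid markers (9 of 10 matched, none at 0) of the 16 hearts, 48764 CPM, against 8894 to 11834 in wild-type and 7813 to 18545 in the other Ing4+/- Ing5-/- hearts. The next highest Cox6b2 level, 8.41 CPM in heart 4 of Ing4+/+ Ing5-/-, came with the next highest erythroid sum, 33430 CPM. The third highest erythroid sum, 19584 CPM in heart 3 of Ing4+/- Ing5+/+, came with 5.12 CPM of Cox6b2, and heart 4 of Ing4+/- Ing5+/+, at 13898 CPM above all wild-type hearts, had the lowest Cox6b2 level of all, 2.22 CPM. The part of blood cells in the Cox6b2 level was not tested. In bulk hearts a change in the share of a cell type and a change in RNA per cell cannot be told apart.

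Its partner Cox6b1 (chromosome 7, 30616971 to 30626114, minus strand) was at 253, 196, 250 and 208 CPM in the Ing4+/- Ing5-/- hearts and at 234, 278, 229 and 231 in wild-type hearts, and these overlapped. The log2 fold change of Cox6b1 was −0.10. The 250 bases upstream of the annotated starts of both genes are printed here with those of Ndufa8, the gene of the 77 with the lowest log2 fold change in this comparison. They were taken from RefSeq (GRCm38.p6, minus strand, 5′ to 3′). Capitals mark a match to the ETS letters CCGGAAG on the opposite strand in Cox6b1 and to the NRF1 letters (GCGCA, any base, GCGC) on the opposite strand in Ndufa8. The Cox6b2 window (chr7:4753095-4753344) held 8 CpG dinucleotides and none of the 5 motifs searched, the Cox6b1 window (chr7:30626115-30626364) held 14, and the Ndufa8 window (chr2:36049339-36049588) held 17.
Cox6b2: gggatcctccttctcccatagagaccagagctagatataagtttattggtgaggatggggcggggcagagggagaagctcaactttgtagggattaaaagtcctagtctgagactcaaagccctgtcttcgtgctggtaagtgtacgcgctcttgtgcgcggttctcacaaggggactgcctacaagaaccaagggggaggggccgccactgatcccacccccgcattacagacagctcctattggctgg
Cox6b1: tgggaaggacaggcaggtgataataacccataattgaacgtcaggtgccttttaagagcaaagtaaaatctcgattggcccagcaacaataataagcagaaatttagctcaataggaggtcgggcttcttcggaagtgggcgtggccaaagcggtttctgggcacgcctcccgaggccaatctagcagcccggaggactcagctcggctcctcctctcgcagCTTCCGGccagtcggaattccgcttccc
Ndufa8: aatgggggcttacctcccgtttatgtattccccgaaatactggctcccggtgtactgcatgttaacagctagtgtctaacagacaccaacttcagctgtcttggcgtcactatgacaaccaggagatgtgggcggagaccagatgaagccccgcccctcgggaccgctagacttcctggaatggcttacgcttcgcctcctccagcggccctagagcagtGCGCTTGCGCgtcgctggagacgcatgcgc

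Among complex I genes the lowest value was that of Ndufa8, an accessory subunit on the intermembrane side (chromosome 2, 36036324 to 36049338, minus strand). It was at 35.8, 27.2, 34.6 and 32.0 CPM in the Ing4+/- Ing5-/- hearts and at 37.0, 41.5, 47.9 and 36.3 in the wild-type hearts, so the groups did not overlap, but by a narrow gap. Its log2 fold change was −0.33 ± 0.12 (SE), with an edgeR adjusted p of 0.252. Ndufb10, another accessory subunit on that side, was at 114, 100.2, 114 and 97.4 CPM against 118, 142, 122 and 118, again without overlap. Its log2 fold change was −0.23 ± 0.08 (SE) and its edgeR adjusted p 0.235. Cycs was at 90.2, 68.1, 84.5 and 83.9 CPM against 93.3, 91.8, 93.3 and 97.4, and did not overlap either, with heart 2 lowest. The log2 fold change of Cycs was −0.20 ± 0.09 (SE, edgeR adjusted p 0.383), and without heart 2 it was −0.13. These were the 3 of the 77 genes with groups apart and lower, against 4.71% of all genes, and Cox6b2 was the 1 apart and higher, against 5.45%.

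The other lower genes with an unadjusted p under 0.05 were Ndufs6 (−0.28), Ndufb2 (−0.24), Ndufc2 (−0.14) and Ndufc1 (−0.17) of complex I, and Atp5pb (−0.13) and the subunit c gene Atp5g1 (−0.22) of ATP synthase. Among core or abundant genes of the chain, Atp5b was at −0.05, Atp5a1 at −0.07, Atp5g3 at −0.12 and Cox8a at −0.07 in log2 fold change. Uqcrc1 and Uqcrfs1 were both at −0.07, and Sdha and Ndufs1 both at −0.06. Each of these genes had an edgeR adjusted p over 0.6. Sdhb was at −0.13, Sdhc at −0.05 and Sdhd at −0.25, the last with a 95% interval of −0.53 to 0.04. In complex III the lowest value was −0.21, of Uqcr10, and the highest −0.05, of Uqcrq. Complex IV ran from −0.14 (Cox5a) to Cox6b2, with Cox5b at −0.07, Cox7a2l at 0.08 and Cox8b at 0.24, and the interval of Cox8b reached from −0.49 to 0.98 at its low counts. Some of these values moved by over 1.5 times when 1 heart was left out. Without wild-type heart 2, Ndufs6 was at −0.18, Ndufb2 at −0.14, Atp5g1 at −0.14, Uqcr10 at −0.12, Cox5a at −0.09, Cox6b1 at −0.03 and Cox8b at 0.58. Sdhd was at −0.10 without wild-type heart 3, and Cox8b at 0.08 without wild-type heart 1. Atp5g3 and Sdhb were both at −0.06 without heart 2 of Ing4+/- Ing5-/-. The highest value in complex I was 0.11, of Ndufa7, and in ATP synthase 0.04, of Atp5g2 (a 95% interval of −0.43 to 0.51), and the core subunit Ndufv1 and the acyl carrier Ndufab1 were both at −0.09.

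**Figure D2:**
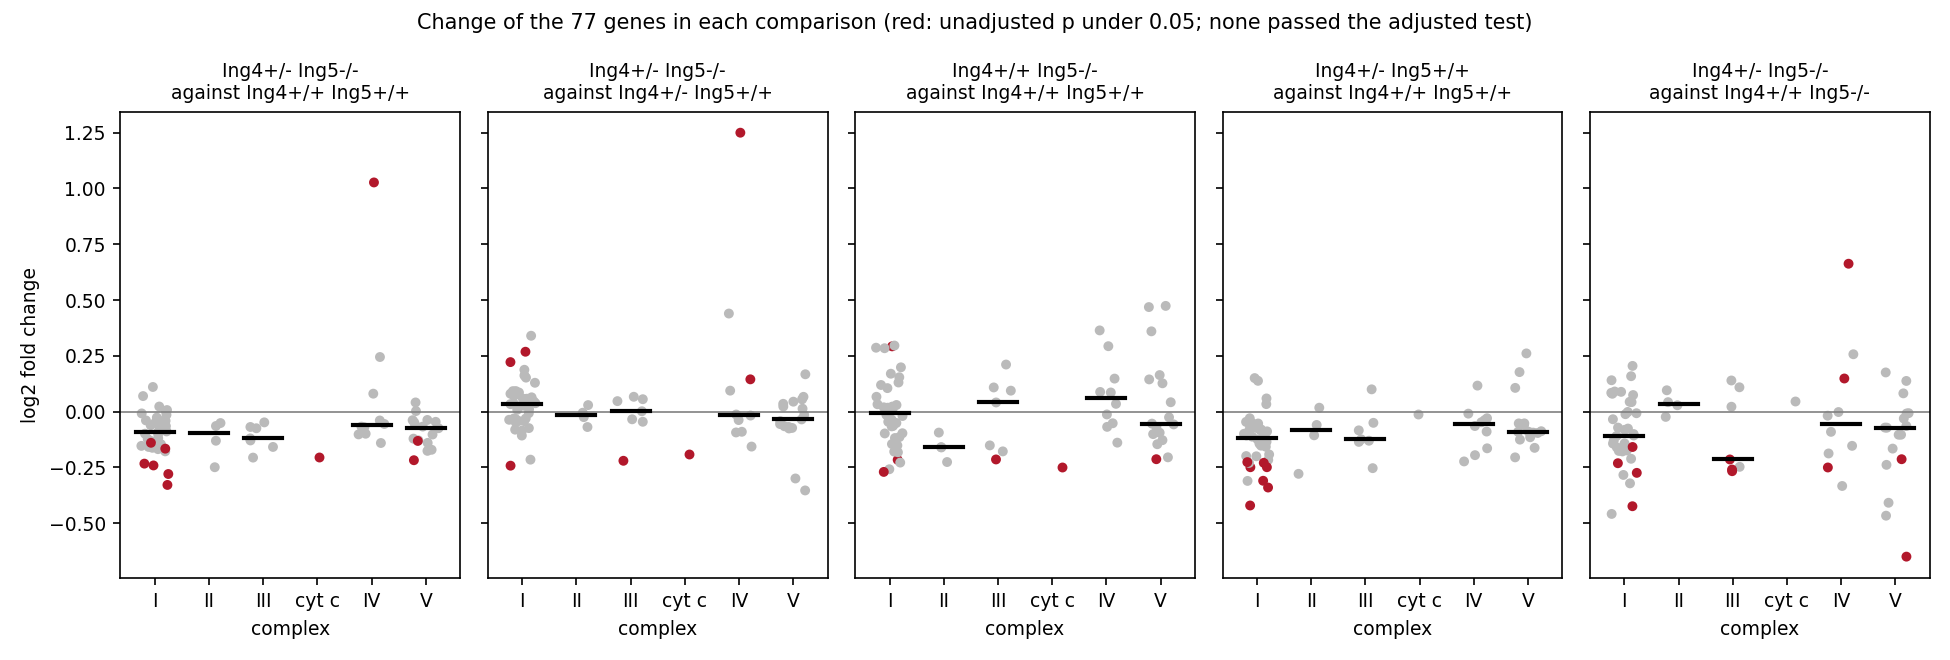
Log2 fold change of each of the 77 genes in the 5 comparisons of genotypes, by complex; black lines are medians of a complex and red points have an unadjusted p under 0.05. Almost all points lie within ±0.5, and Cox6b2 (complex IV) stands above the rest in the comparisons of Ing4+/- Ing5-/- with wild-type (1.03) and Ing4+/- Ing5+/+ hearts (1.25).

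The comparison of Ing4+/- Ing5-/- with Ing4+/- Ing5+/+ hearts asks what the loss of Ing5 does where 1 Ing4 allele is lost in both groups. It shares the Ing4+/- Ing5-/- hearts with the comparison above. Hearts 2, 3 and 4 of both groups came from litters 4, 6 and 7, so those with the same number were littermates. None of the 77 genes passed the edgeR test, against 1.16% of all genes, and the lowest adjusted p was 0.0613. The median log2 fold change was 0.01, with 37 of 77 genes negative (50.3% of all genes). Unadjusted p was under 0.05 for 4 higher genes (7.18% of all genes) and 3 lower genes (6.73%). The groups lay apart with higher values in 3 genes (5.22% of all genes) and with lower values in 0 (4.88%). Leaving out the 3 libraries that stood apart, 0 genes passed (1.26% of all genes), 37 were negative (51.7%), and unadjusted p was under 0.05 for 2 higher genes (6.11%) and 0 lower genes (6.27%). With 1 library left out, the counts ran from 1 (without heart 4 of Ing4+/- Ing5+/+) to 5 higher genes and from 0 (without that heart, or heart 2 or 4 of Ing4+/- Ing5-/-) to 3 lower genes.

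Cox6b2 was the gene with the lowest p. The Ing4+/- Ing5+/+ hearts were at 4.85, 3.798, 5.12 and 2.22 CPM, all below the 4 Ing4+/- Ing5-/- hearts given above. Its log2 fold change was 1.25 ± 0.31 (SE), with an edgeR adjusted p of 0.0613, and without heart 2 of Ing4+/- Ing5-/- it was 0.82, with an edgeR adjusted p of 0.221. With the 3 libraries that stood apart left out it was 0.62 (edgeR adjusted p 0.228). DESeq2 gave an adjusted p of 0.00392 for Cox6b2 (3.08% of all genes called), edgeR with litter as a block 0.0326 (0.494%), and edgeR with a Y-linked covariate 0.0270 (1.18%).

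The other genes with an unadjusted p under 0.05 differed less. Ndufv3, an accessory subunit of complex I, was at 90.4, 91.9, 84.7 and 92.4 CPM in the Ing4+/- Ing5-/- hearts and at 77.6, 83.0, 81.3 and 66.2 in the Ing4+/- Ing5+/+ hearts, with no overlap and a log2 fold change of 0.22. Ndufa6 was at 0.27, also without overlap, and at 0.13 without heart 4 of Ing4+/- Ing5+/+. Cox7a2l was at 0.14, Uqcrb at −0.22, Ndufab1 at −0.24 (−0.16 without heart 2 of Ing4+/- Ing5+/+) and Cycs at −0.19. Cycs came to −0.12 without heart 4 of Ing4+/- Ing5+/+ and −0.11 without heart 2 of Ing4+/- Ing5-/-. The lowest log2 fold change was −0.35, of Atp5k, the e subunit of ATP synthase, at an unadjusted p above 0.05, and it was −0.13 without heart 2 of Ing4+/- Ing5+/+, which was at 60.8 CPM.

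Ing4+/+ Ing5-/- hearts were set against wild-type hearts to ask what the loss of Ing5 does with both Ing4 alleles present, and the wild-type hearts are those of the first comparison. None of the 77 genes passed the edgeR test (0.0127% of all genes), and the lowest adjusted p was 0.421. The median log2 fold change was −0.02, with 41 of 77 genes negative (46.8% of all genes). Unadjusted p was under 0.05 for 1 higher gene (6.09% of all genes) and 5 lower genes (3.50%). Groups lay apart with lower values in 5 genes (2.26% of all genes; Cycs, Ndufa10, Ndufs1, Uqcrfs1 and Ndufb10) and higher values in Ndufb3 alone (2.48%).

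The 5 lower genes by unadjusted p came from complexes I, III and V and cytochrome c. Cycs was at 68.8, 83.2, 85.0 and 79.0 CPM in the Ing4+/+ Ing5-/- hearts, each below the 4 wild-type hearts, with a log2 fold change of −0.25 ± 0.09 (SE). It was −0.19 without heart 1. Ndufs1, the largest iron-sulfur subunit of complex I, was at 247, 409, 386 and 394 CPM against 429, 419, 446 and 437, with heart 1 far below the rest. The log2 fold change of Ndufs1 was −0.27, and −0.13 without heart 1. Ndufa10 was at −0.22 (−0.12 without heart 1), Uqcrfs1 at −0.21 (−0.11) and Atp5d, the delta subunit of ATP synthase, at −0.21 (−0.10). The higher gene was Ndufa3, a small accessory subunit of complex I, at 0.29, and 0.21 without heart 1. The highest log2 fold change was that of Atp5k at 0.47, with an unadjusted p above 0.05, and it was 0.28 without wild-type heart 3. Without the 3 libraries that stood apart, unadjusted p was under 0.05 for 4 lower genes (3.46% of all genes) and 0 higher genes (4.38%), 49 of 77 genes were negative (49.1%), and 0 passed (0.0254%). When 1 library was left out, the lower genes ran from 2 (without wild-type heart 2 or heart 1 of Ing4+/+ Ing5-/-) to 12 (without heart 2 of Ing4+/+ Ing5-/-) and the higher genes from 0 to 8 (without heart 4 of Ing4+/+ Ing5-/-). Litter as a block gave 1 lower and 2 higher genes, with 35 negative. The share of all genes is not given for the counts with 1 library left out or with litter as a block.

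Ing4+/- Ing5+/+ hearts were set against wild-type hearts to ask what the loss of 1 Ing4 allele does, again with the same wild-type hearts. No gene of the 77, and no gene of all 15785, passed the edgeR test (0% of all genes). The lowest adjusted p among the 77 was 0.915. DESeq2 also called 0 of the 77 genes, but its share of all genes in this comparison is not given, so that 0 cannot be weighed. Groups lay apart with lower values in 3 genes (2.04% of all genes), Ndufa8, Ndufs8 and Atp5d, and with higher values in 0 (1.74%). The median log2 fold change was −0.09, with 67 of 77 genes negative (48.4% of all genes). Unadjusted p was under 0.05 for 7 lower genes (2.18% of all genes) and 0 higher genes (2.55%). All 7 encode accessory subunits of complex I, which gave 38 of the 77 genes. The 7 were Ndufa8 (−0.42), Ndufa12 (−0.34), Ndufa6 (−0.31), Ndufs6 (−0.25), Ndufa13 (−0.25), Ndufb8 (−0.23) and Ndufb7 (−0.23). A similar pattern was seen outside complex I. Of 78 mitochondrial ribosome genes, 63 were negative in this comparison, with a median of −0.09. Unadjusted p was under 0.05 for 10 lower and 0 higher ribosome genes.

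The count of 7 changed with single hearts and with litter. It was 3 without wild-type heart 2, wild-type heart 3, or heart 1 or heart 4 of Ing4+/- Ing5+/+, and 16 without heart 1 of Ing4+/+ Ing5-/-. Leaving out wild-type heart 2, the 3 lower genes stood against 1.56% of all genes, and 58 of 77 were negative (48.2%). With litter as a block, 0 genes were lower (0.456% of all genes), 46 were negative, against 48.2% of all genes, and the median was −0.02. Wild-type hearts 2 and 3, and heart 1 of Ing4+/- Ing5+/+, had no littermate of another genotype. They do not bear on the difference in that fit, so it does not separate litter from leaving these hearts out. Ndufs6 was at −0.15 and Ndufb7 at −0.13 without wild-type heart 2, Ndufa13 at −0.13 without heart 4 of Ing4+/- Ing5+/+, and Ndufa12 at −0.23 without wild-type heart 3.

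Ndufa8 was at 31.9, 31.8, 34.2 and 23.7 CPM in the Ing4+/- Ing5+/+ hearts, all below the wild-type hearts, with heart 4 lowest. Its log2 fold change was −0.42 ± 0.12 (SE), with an edgeR adjusted p of 0.915, and −0.32 without heart 4. Ndufa12 was at 28.5, 25.7, 27.7 and 19.4 CPM, and wild-type hearts at 26.2, 33.9, 39.4 and 28.6, so these overlapped. Ndufa6 came to −0.17 without heart 4. The highest log2 fold change, 0.26, was that of Atp5l, the g subunit of ATP synthase, and it was 0.08 without wild-type heart 3. Without the 3 libraries that stood apart, unadjusted p was under 0.05 for 8 lower genes (3.13% of all genes) and 0 higher genes (2.67%), 61 of 77 genes were negative (49.6%), and 0 passed (0.0254%).

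The comparison of Ing4+/- Ing5-/- with Ing4+/+ Ing5-/- hearts asks what the loss of 1 Ing4 allele does where Ing5 is lost in both groups. None of the 77 genes passed the edgeR test (0.00634% of all genes), with a lowest adjusted p of 0.490. The median log2 fold change was −0.08, with 54 of 77 genes negative (51.1% of all genes). Unadjusted p was under 0.05 for 10 lower genes (3.95% of all genes) and 2 higher genes (2.68%). Groups lay apart with lower values in 6 genes (1.64% of all genes) and higher values in 0 (1.36%). With the 3 libraries that stood apart left out, unadjusted p was under 0.05 for 3 lower genes (2.43%) and 0 higher genes (2.20%), 53 genes were negative (52.4%), the median was −0.03, and 0 passed (0.00634%). With 1 library left out, the lower genes by unadjusted p ran from 1 (without heart 2 of Ing4+/- Ing5-/-) to 21 (without heart 4 of Ing4+/+ Ing5-/-), with 2 without heart 4 of Ing4+/- Ing5-/- and 3 without heart 2 of Ing4+/+ Ing5-/-. Litter as a block gave 2 lower genes. No share of all genes is given for the counts with 1 library left out or with litter as a block, so they show only how far the count moved. Ndufa3 was at 36.9, 33.2, 38.4 and 32.6 CPM in the Ing4+/- Ing5-/- hearts and at 55.5, 51.9, 40.4 and 41.5 in the Ing4+/+ Ing5-/- hearts, without overlap. The log2 fold change of Ndufa3 was −0.42 ± 0.12 (SE), with an edgeR adjusted p of 0.490. Atp5k was at −0.65 and −0.52 without heart 1 of Ing4+/+ Ing5-/-. Ndufb2 was at −0.27, Uqcrh at −0.27 (−0.13 without heart 1 of Ing4+/+ Ing5-/-), and the 2 higher genes were Cox6b2 at 0.66 (0.23 without heart 2 of Ing4+/- Ing5-/-) and Cox7a2l at 0.15.

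The interaction of the 2 losses, the log2 fold change of Ing5 loss with 1 Ing4 allele lost minus that with both Ing4 alleles present, was tested as a term of the same edgeR model. None of the 77 genes and none of all genes passed it (0% of all genes), and the lowest adjusted p among the 77 was 0.830. Unadjusted p was under 0.05 for 4 genes above 0 (2.45% of all genes) and 4 below (3.43%), and 32 of 77 values were negative (51.6%). Without the 3 libraries that stood apart it was under 0.05 for 5 genes above 0 (2.07%) and 0 below (2.13%), 28 were negative (51.9%), and 0 passed (0%). The lowest p was that of Ndufa6, with an interaction of 0.45 ± 0.16 (SE), followed by Atp5d at 0.38 ± 0.14. The largest values were 0.89 for Cox6b2, which was 0.46 without heart 2 of Ing4+/- Ing5-/-, and −0.83 for Atp5k. With 1 library left out the counts ran from 2 to 9 genes above 0 and from 0 to 6 below, and litter as a block gave 0 above and 1 below. For these settings the share of all genes is not given.

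**Figure D3:**
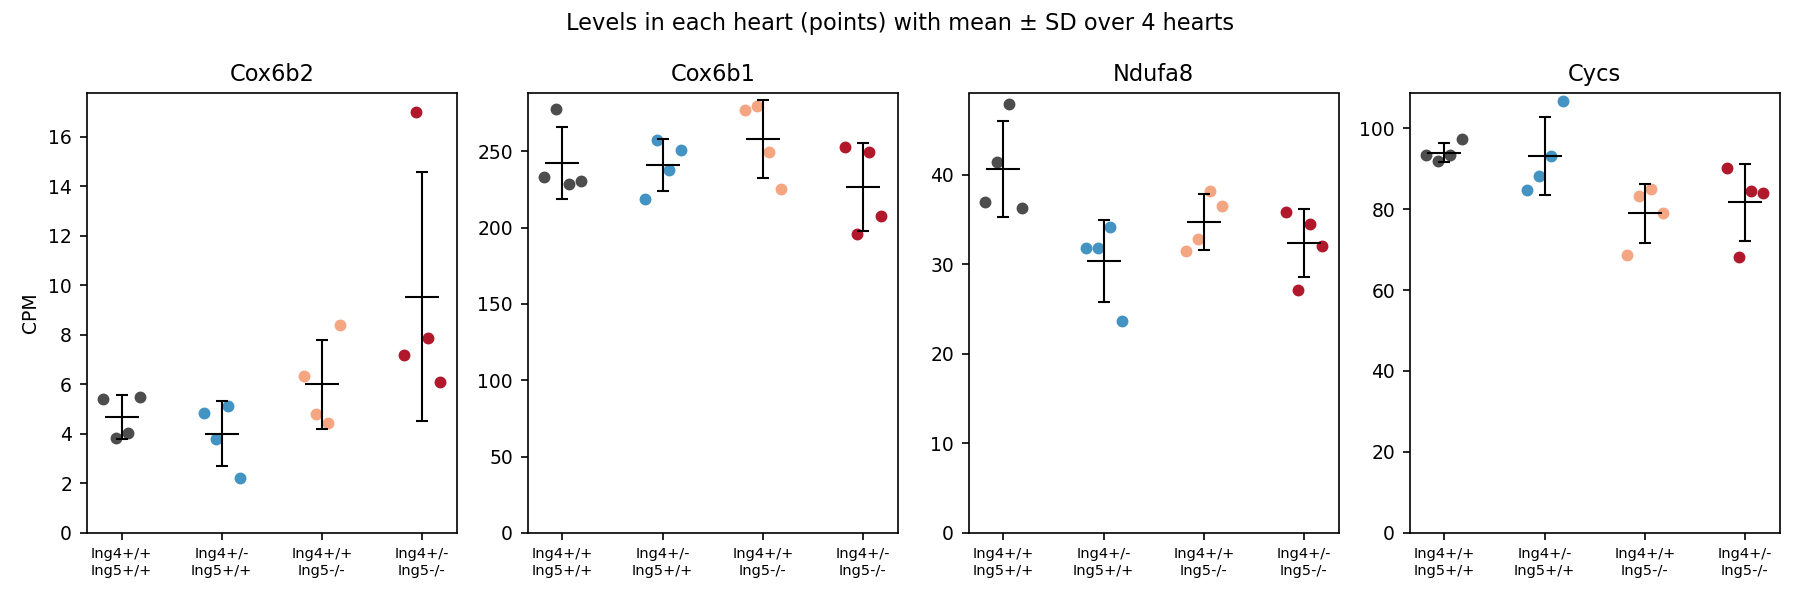
CPM of Cox6b2, Cox6b1, Ndufa8 and Cycs in each of the 16 hearts (points), with the mean and SD of 4 hearts per genotype. Heart 2 of Ing4+/- Ing5-/- is the high point of Cox6b2 at 17.0 CPM, Cox6b1 overlaps between all genotypes, and Ndufa8 is highest in wild-type hearts.

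Hearts of the same genotype differed among themselves. Each gene was set against its own median over the 16 hearts on a log2 scale, and the median of these deviations over the 77 genes ran from −0.15 (heart 4 of Ing4+/- Ing5+/+) to 0.17 (wild-type heart 2). The deviations were 0.03, 0.17, 0.01 and −0.04 in the 4 wild-type hearts, −0.07, 0.05, −0.01 and −0.15 in Ing4+/- Ing5+/+, 0.02, 0.10, 0.04 and −0.08 in Ing4+/+ Ing5-/-, and 0.06, −0.14, 0.01 and −0.10 in Ing4+/- Ing5-/- hearts. The genotypes overlapped. In wild-type heart 2 only 5 of the 77 genes lay below their median, whereas in heart 2 of Ing4+/- Ing5-/- 66 did. The summed level of the 77 genes was 18982 ± 1057 CPM in wild-type hearts (SD, n = 4), and wild-type heart 2 alone reached 20548. Single genes varied by a median of 1.56-fold between the lowest and the highest of the 16 hearts, from 1.17-fold for Ndufb11 to 7.66-fold for Cox6b2.

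**Figure D4:**
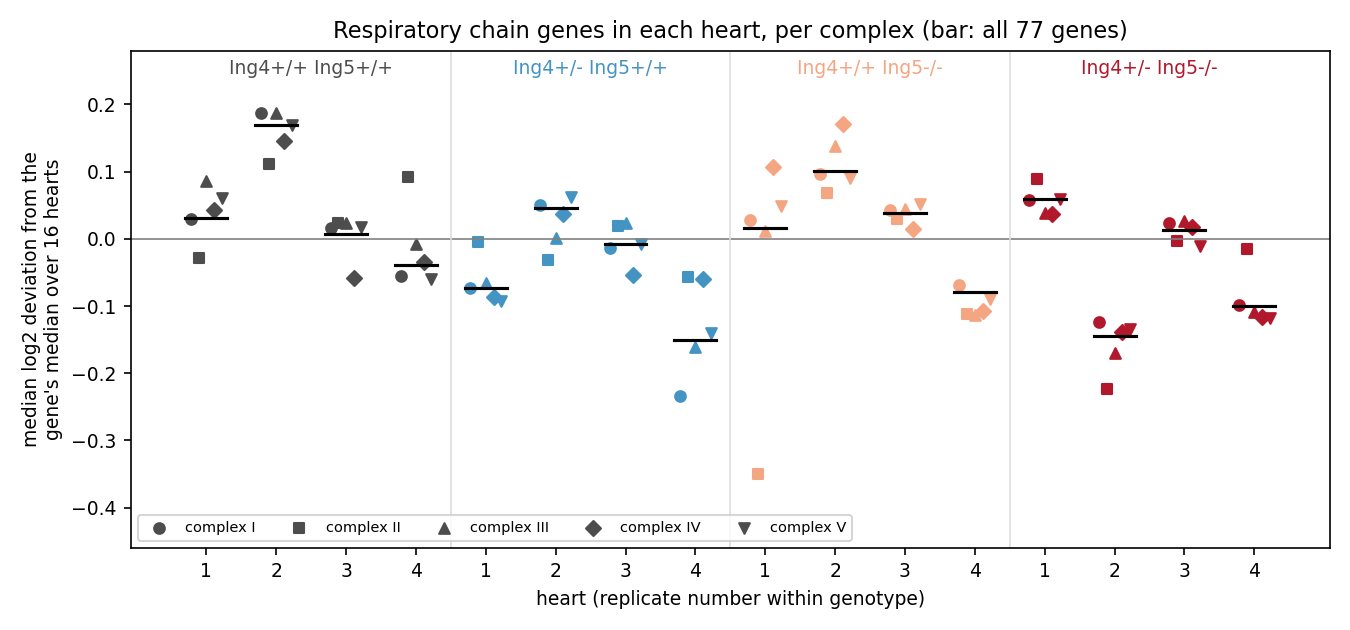
Median log2 deviation of the genes of each complex (symbols) and of all 77 genes (bars) in each heart, from each gene's median over 16 hearts. The complexes of a heart mostly lie close together, and wild-type heart 2 is highest at 0.17. They lie further apart in heart 1 of Ing4+/+ Ing5-/-, with complex II at −0.35 and complex IV at 0.11. In heart 4 of Ing4+/- Ing5+/+ complex I is at −0.23 and complex II at −0.06. Cytochrome c is not drawn on its own.

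Heart 1 of Ing4+/+ Ing5-/- departed from the others in which genes were high, not in their median. The SD of its deviations over the 77 genes was 0.41, against 0.08 to 0.27 in the other hearts. Its lowest deviations were those of Ndufs1 (−0.74), Atp5a1 (−0.67) and Sdha (−0.64), all long transcripts, and its highest those of Atp5e (1.12), Atp5md (0.96) and Ndufb4c (0.89), all short ones. The 34 genes under 600 bases had a median deviation of 0.25, the 23 genes of 600 to 1200 bases −0.08, and the 20 longer genes −0.29. Other genes of the same length classes had medians of 0.23, 0.10 and −0.02. Across the 77 genes of this library, Spearman's rho between deviation and length was −0.72, and across other genes −0.17. These values describe 1 library, and genes are not independent replicates. The other hearts ranged from −0.57 (heart 2 of Ing4+/+ Ing5-/-) to 0.53 (heart 4 of Ing4+/- Ing5-/-). In heart 1 ATP synthase took 46.9% of the summed level of the 77 genes, complex II 5.07% and complex IV 10.2%, against 49.8% to 51.6%, 5.89% to 6.49% and 8.44% to 9.11% in the other hearts. This heart also had the lowest cardiomyocyte sum (20659 CPM) and the highest epicardial sum (1181 CPM, with 8 of 8 markers detected, against 348 to 580 in the other hearts). The part of RNA length or of cell types in its values was not tested.

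**Figure D5:**
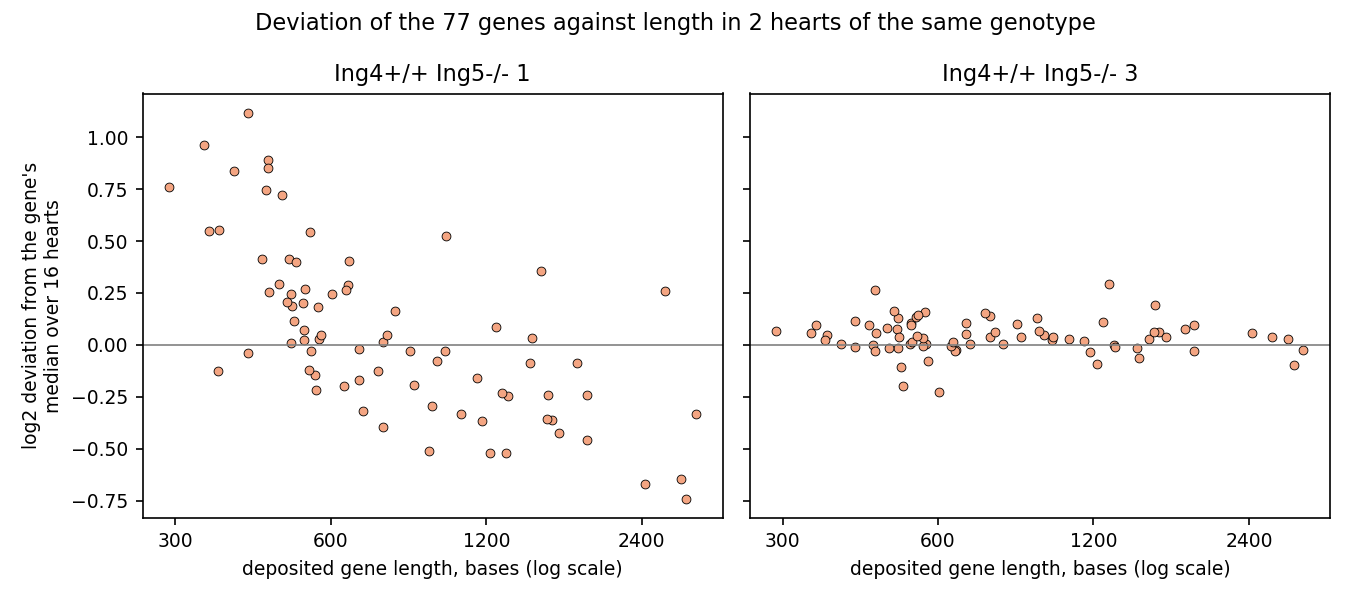
Log2 deviation of the 77 genes from their median over 16 hearts against deposited gene length (log axis) in hearts 1 and 3 of Ing4+/+ Ing5-/-. In heart 1 short genes lie above 0 and long genes below (rho −0.72), while in heart 3 the points stay near 0 at all lengths (rho −0.10).

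Summed markers of other cell types were taken from the same hearts. The summed macrophage markers (10 of 10 detected) were at 10.1 to 16.7 CPM in wild-type, 13.2 to 21.9 in Ing4+/- Ing5+/+, 19.2 to 55.5 in Ing4+/+ Ing5-/- and 40.7 to 64.1 in Ing4+/- Ing5-/- hearts. The cardiomyocyte sum was 34809 ± 1168 CPM in wild-type and 32374 ± 2180 in Ing4+/- Ing5-/- hearts (SD, n = 4), and 31537 ± 949 in Ing4+/- Ing5+/+ hearts, all 4 of which lay below all wild-type hearts. The endothelial sum (8 of 8 detected) was 1128 ± 68.3 in wild-type and 1192 ± 166 in Ing4+/- Ing5-/- hearts. The epicardial sum was 425 ± 37.4 CPM (377 to 462) in Ing4+/- Ing5-/- and 521 ± 21.1 CPM (495 to 546) in wild-type hearts, without overlap. Their part in the values of the subunit genes was not tested.

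Genes that build or feed the respiratory chain were taken from lists and compared between Ing4+/- Ing5-/- and wild-type hearts. Among 44 assembly factors tested 0 passed (median −0.06 in log2 fold change). None of 78 mitochondrial ribosome genes passed either, with a median of −0.08 and 64 negative (49.2% of all genes). The medians were −0.08 for 18 genes of the tricarboxylic acid cycle, −0.08 for 24 import genes, −0.09 for 18 genes of fatty acid oxidation, −0.03 for 13 genes of coenzyme Q synthesis, 0.03 for 16 genes of mitochondrial DNA maintenance and transcription and 0.07 for 16 regulators of mitochondrial biogenesis, and none of these genes passed the edgeR test. Cyc1, the cytochrome c1 subunit of complex III that the symbol rule does not take, was at −0.13. The lowest p was that of Tmem126a (−0.17) among assembly factors, Mrps22 (−0.23) among ribosome genes, Pcx (0.28) in the tricarboxylic acid list, Timm17a (−0.16) in import, Hadh (−0.24) in fatty acid oxidation, Coq10a (0.40) in the coenzyme Q list, Mterf4 (0.23) in the mitochondrial DNA list and Myc (0.69) among regulators. In Ing4+/+ Ing5-/- against wild-type hearts 18 of 18 genes of fatty acid oxidation and 17 of 18 of the tricarboxylic acid cycle were negative, against 46.8% of all genes, with medians of −0.18 and −0.17, and 0 passed. Without heart 1 of that group, which had the lowest cardiomyocyte sum, 17 and 15 of the 18 were negative, with medians of −0.09 and −0.07. The share of all genes negative without that heart is not given here.

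The glycolysis list and the alternative subunits held the genes that did pass. Among 20 glycolysis genes the median log2 fold change was 0.39 in Ing4+/- Ing5-/- against wild-type hearts, with 2 negative (49.2% of all genes). Of the 20, 4 passed as higher (0.855% of all genes passed): Aldoc (1.20), Slc2a3 (1.05), Pdk1 (0.67) and Pgk1 (0.56), with edgeR adjusted p from 0.00403 to 0.0363. Against Ing4+/- Ing5+/+ hearts 10 of the 20 passed as higher (1.16% of all genes passed), and 0 were negative (50.3% of all genes). Of the 8 alternative subunits 2 passed as higher in both comparisons, Cox4i2 (1.68 against wild-type) and Ndufa4l2 (2.96). Cox4i2 also passed as higher in Ing4+/+ Ing5-/- against wild-type hearts (1.00, edgeR adjusted p 0.0440). Both lists were chosen with these results known. The difference between these lists and the subunit genes was not tested.

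The promoters of the subunit genes were searched for 5 short motifs on both strands, in RefSeq windows of 250 bases before the start. Windows were found for 65 of the 77 genes, 70 windows in all. The NRF1 letters (GCGCA, any base, GCGC), bound by nuclear respiratory factor 1, a known activator of subunit genes, were in 13 of the 70 windows (18.6%), in 7.26% of the windows of protein-coding genes tested and in 3.74% of all windows. Ndufa5 held them in both of its windows. The other genes with them, by complex, were Sdha and Sdhd of complex II, Atp5c1, Atp5g2, Atp5h and Atp5k of ATP synthase, and Ndufa8, Ndufa11, Ndufb4, Ndufs5 and Ndufs6 of complex I. The ETS letters CCGGAAG were in 14.3% of the 70 windows and 12.2% of those of protein-coding genes tested. The YY1 letters ATGGCGGC were in 2 windows, both of Ndufa7 (2.86%, against 1.69%). The letters TCAAGGTCA of estrogen-related receptors were in 1 window, that of Atp5g3 (1.43%, against 0.283%). The TATA letters TATAAA were in 7 of the 70 windows, against 6.88%. None of these motifs contains another. The median number of CpG dinucleotides per window was 14.5, against 15 in protein-coding genes tested.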

How the data were processed

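RNA-seq of 16 embryonic mouse hearts (total RNA from a column kit, stranded libraries, per the labels' protocols) was analysed from raw counts of reads per gene, deposited as 1 table for the series and 16 single-sample tables, which were equal to it. Per the submitters' processing notes, bcl2fastq, featureCounts and the mm10 build were used, while no source used here names the aligner, the annotation or the strand setting. The deposited gene length in bases (other) gave RPKM. Of 27179 identifiers, 25275 (93.0%) matched a RefSeq symbol (GRCm38.p6).

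The subunit genes and the gene lists were chosen with earlier results of these data known. The test was that of edgeR 4.0.16 in R 4.3.3. The filter by expression kept 15785 genes, TMM factors ran from 0.967 to 1.08, and a robust quasi-likelihood model of 4 genotype means was fitted to all 16 libraries. Called means p under 0.05 after Benjamini-Hochberg adjustment across the genes tested. CPM used TMM-scaled totals. SEs are the log2 fold change divided by the square root of F. The pipeline was checked on simulated counts. Litter is not balanced over the genotypes, and its fit as a block is an alternative. Litter 5 held only wild-type hearts 2 and 3, litter 3 only heart 1 of Ing4+/- Ing5+/+, and litter 2 only heart 3 of Ing4+/+ Ing5-/-. With litter as a block these hearts do not bear on differences between genotypes.

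Named were fixed core subunits, the highest and lowest level of each complex, the largest changes and 2 lowest p-values of each comparison, and the lowest p of each list. Genes beyond this rule, where a count was small, were named after their values were seen. One gene that the rule names is not reported here. Shared 50-base stretches and exon overlaps came from GENCODE M21. Alternatives were DESeq2 1.42.0 (size factors, Wald test), limma-voom (limma 3.58.1), other filters, only the groups compared, litter (block or random effect), replicate number, Y-linked level, haemoglobin genes left out, the 3 libraries that stood apart left out, each library left out, and, added after seeing the data, no robust estimate.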

Additional observations from a re-analysis of the deposited data

Results flagged for a closer look

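In 76 checks of a gene, a complex or all 77 genes in a group of 4 hearts, 7 had 1 heart far from the other 3 by Dixon's ratio, and chance alone gives about 1 in 20. Cox6b2 was at 17.0 CPM in heart 2 of Ing4+/- Ing5-/-, against 6.09 to 7.88 in the others. Heart 1 of Ing4+/+ Ing5-/- was low in 3 complex I genes: Ndufs1 at 247 CPM against 386 to 409, Ndufa10 at 152 against 205 to 211, and Ndufb10 at 100.95 against 116 to 118. Ndufa6 was at 63.8 CPM in heart 3 of Ing4+/+ Ing5-/-, against 55.3 to 56.4. Ndufb10 was at 142 CPM in wild-type heart 2, against 118 to 122. Ndufa10 was at 213 CPM in heart 3 of Ing4+/- Ing5+/+, against 218 to 219, a gap of a few CPM in a narrow group. No explanation was tested for any of these.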

How the results depend on the processing

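The count of called subunit genes was 0 in all 6 tests and stayed 0 under every alternative run except for Cox6b2. It was 1 in Ing4+/- Ing5-/- against wild-type hearts with the DESeq2 Wald test (325 of all genes called, against 135 by edgeR) and with the Y-linked covariate. It was 1 in Ing4+/- Ing5-/- against Ing4+/- Ing5+/+ hearts with DESeq2, the Y-linked covariate and litter as a block, and 0 to 1 when 1 library was left out (1 without heart 4 of Ing4+/- Ing5-/- or heart 4 of Ing4+/+ Ing5-/-). The litter block turned Cox6b2 in Ing4+/- Ing5-/- against Ing4+/+ Ing5-/- hearts from 0.66 to −0.028. These genotypes shared only litters 1 and 7. Heart 2 of Ing4+/- Ing5-/-, the high heart for Cox6b2, came from litter 4, without an Ing4+/+ Ing5-/- littermate. The cause of the turn was not tested. Litter as a block called 15 of all genes in the first comparison. The counts at unadjusted p under 0.05 also changed with single hearts and with litter, as given beside each comparison. Where no share of all genes stands beside such a count, it shows only how far the count moved. The median against wild-type hearts ran from −0.11 to −0.05 for Ing4+/- Ing5-/- and from −0.14 to −0.06 for Ing4+/- Ing5+/+ when 1 library was left out, while that of Ing4+/+ Ing5-/- ran from −0.06 to 0.04. With the replicate block the first of these was −0.08 and no gene was called. Hearts with the same number correlated above 0.1 in 5 of 24 pairs (4 of 16 hearts best with their own number), and hearts of the same litter in 3 of 11 pairs. Some pairs counted in both, such as heart 2 of Ing4+/- Ing5-/- and heart 2 of Ing4+/- Ing5+/+, so similar scores were partly built in. This check could not tell whether the numbers pair hearts. Hearts numbered 1 came from litters 1, 3 and 4, so the number does not stand for litter in every genotype. Hearts 2, 3 and 4 of Ing4+/- Ing5-/- came from litters 4, 6 and 7, as did those of Ing4+/- Ing5+/+. Of 519 values of 18 gene results, 511 kept direction and side of the threshold, 7 passed it and 1 turned. Depth limits the genes under 5 CPM, such as Cox8b.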

Other observations

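Some genes of the same names gave values outside the comparisons. Uqcr11, a small subunit of complex III, held 10 reads over all 16 libraries and was at 0 in 12 of them, although only 10.9% of its 50-base stretches were shared with another annotated gene. Ndufs5 had a mean of 12.03 CPM, while its pseudogene Ndufs5-ps had 64.1 CPM. Of the 3 Ndufb4 genes, Ndufb4b had a mean of 53.2 CPM, Ndufb4c 16.2 and Ndufb4 itself 4.61. Cox7b2, known from testis like Cox6b2, held 42 reads over the 16 libraries, and Cox8c held 3. How the counting assigned reads between such copies was not tested.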
